A study of Xenopus laevis with 12 samples.

Results

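The 71 ribosomal protein genes measured by 12 one-colour Affymetrix arrays of Xenopus laevis ectoderm explants are described here. Members were taken from the probe annotation by symbol: names that start with rpl or rps and a digit, or rplp0, rplp1, rplp2 and rpsa, with the suffix .L or .S. Kinases of the rps6k family and symbols ending in l1 before the suffix were left out, and the brightest probe set stood for a symbol. The rule gave 71 of the 7531 symbols that had a probe set of their own, from 63 genes. Of these, 45 belong to the large (60S) subunit and 26 to the small (40S) subunit, and 34 are .L copies and 37 .S copies, the suffixes of the long and the short member of each chromosome pair that this allotetraploid species inherited from its 2 ancestors. Taken literally, the rule also keeps rpl3l.L, a paralogue of rpl3, and rps28p9.S, a symbol of the annotation.

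Ectoderm explants (animal caps) came from embryos fertilised in vitro and were cut at the blastula stage. Every explant, injected or not, was cultured at 25 °C in the saline 0.7x MMR, and 80 were pooled into each sample. The 4 groups were Geminin-injected and uninjected explants collected when whole siblings had reached stage 10.5 (early gastrula) or stage 12 (late gastrula), with 3 arrays in each. Injected explants came from embryos given 300 pg of RNA for xGemininΔcoil, a form of Geminin named as without its coil, at the 2-cell stage. Geminin restrains the licensing of DNA replication and also acts in early neural development, and the series title gives its aim as finding the genes it regulates. The controls were uninjected, so an effect of injection and an effect of Geminin cannot be told apart. Per the design text the whole experiment was repeated 3 times at each stage, with injected and uninjected samples paired.

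A ribosome joins a small subunit, which decodes the mRNA, to a large subunit, which forms the peptide bond, and each subunit holds one copy of nearly every ribosomal protein. Vertebrate ribosomal protein mRNAs carry a 5′ terminal oligopyrimidine tract, through which growth signals acting on the mTOR kinase and the protein Larp1 set their translation together. The Xenopus egg stores ribosomes and ribosomal protein mRNA, and the embryo later makes its own. None of the arrays measures translation, and in pooled tissue fewer cells of a type and less RNA per cell cannot be told apart.

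Values below are normalised log2 signals, log2(intensity + 16) after quantile normalisation across the arrays, unless a deposited intensity is named. A change is a difference of these signals with its standard error (SE) from limma, and a gene is said to have risen or fallen where its p-value, Benjamini-Hochberg adjusted over 11618 probe sets, was under 0.05. Each fit used all 12 arrays, so the SE rests on a spread pooled over both stages. Sample sizes given beside an SE are those of the groups or pairs compared. Array medians of the deposited intensity ranged from 49.0 to 145.7. The check of the injected gene went against one label: gmnn.L had an intensity of 4576 in the library labelled uninjected of experiment 3 at stage 12, against 115.5 to 375.02 in the other uninjected samples and 3202.7 to 13754.19 in the injected ones. Arrays of experiments 2 and 3 at stage 12 also resembled each other more than other replicates, with a correlation of 0.9895 between the uninjected and 0.9818 between the injected arrays. Member results of stage 12 are therefore given with and without experiment 3, or with experiments 2 and 3 averaged, where this changes them. The subunit and copy groups, the other gene lists and the markers were not refitted in these ways.

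Most ribosomal protein probe sets were among the brightest of the array. Of the 71, 64 had a mean signal at or above the 90th percentile of the probe sets. The 3 brightest were those of the small subunit genes rps29.S, rps27.S and rps18.L, at the 99.9, 99.7 and 99.7 percentiles. The dimmest were rps20.L at percentile 44.9, rpl28.L at 7.5 and rpl3l.L at 5.5. The last 2 fell below the filter that left out the lowest 25% of probe sets, so 69 members were tested. Their signals ran from 4.31 to 5.25 for rpl28.L and from 4.28 to 4.89 for rpl3l.L over the 12 arrays, with no separation of the groups. Percentiles rank the brightness of probe sets and are not levels of the mRNAs. The probe sets of 14 members are of a type that can bind several transcripts, those of rps29.S and rps27.S among them.

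Signals of ribosomal protein genes were higher at stage 12 than at stage 10.5, with or without Geminin. After subtracting each gene's mean over the arrays, the median over the 71 genes was -0.261, -0.219 and -0.398 in the uninjected explants of stage 10.5 and 0.648, 0.416 and 0.361 in those of stage 12. In Geminin explants it was -0.579, -0.259 and -0.463 at stage 10.5 and 0.332, 0.239 and 0.283 at stage 12. The arrays of the 2 stages thus did not overlap in either condition. On the deposited scale, where array brightness is not evened out, the median intensity of the genes was 1154.5, 2387.4 and 1030.8 and then 2876.2, 3061.5 and 3049.1 in uninjected explants. The corresponding Geminin values were 828.2, 2031.6 and 875.3, then 2126.6, 2486.5 and 2653.3. Experiment 2 of stage 10.5, the highest of its groups here, also had the brightest arrays over all probe sets, with medians of 143.1 and 145.7.

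**Figure D1:**
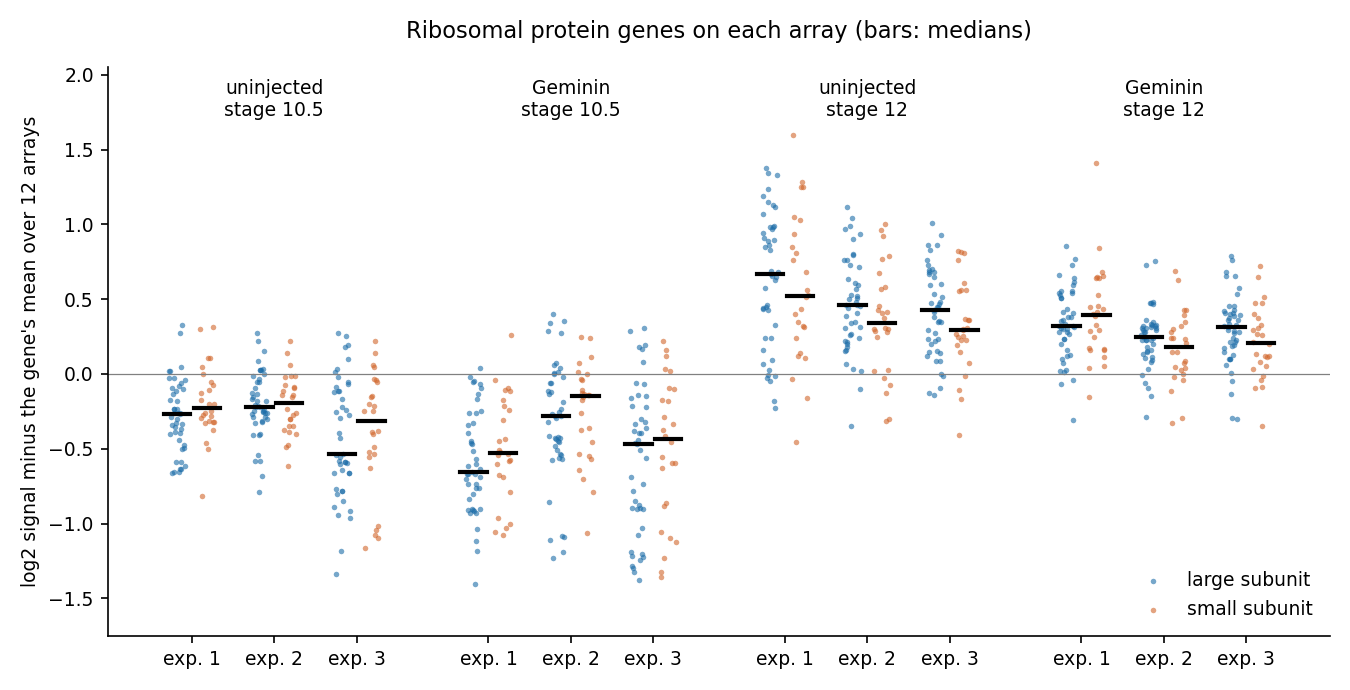
Normalised log2 signal of each of the 71 ribosomal protein genes minus that gene's mean over the 12 arrays (vertical axis), by array (horizontal axis, experiments 1 to 3 of each group). Each point is a gene, coloured by subunit, and bars are medians; medians of both subunits lie below 0 on all 6 arrays of stage 10.5 and above 0 on all 6 of stage 12.

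In uninjected explants 47 of the 69 tested genes (68.1%) rose from stage 10.5 to stage 12 and 1 fell, while 15.2% of all probe sets tested rose and 16.5% fell. The median change of the 71 genes was 0.69, against -0.04 for all probe sets tested and -0.14 for the 1071 other probe sets in the brightest 10%, of which 10.1% rose. In Geminin explants 39 of 69 (56.5%) rose and 0 fell in limma, with 1 lower at an unadjusted p under 0.05. There 7.82% of all probe sets rose and 8.49% fell, as did 9.9% and 9.15% of the other bright ones, and the medians were 0.68 for the members, 0.02 for all tested and 0.01 for the other bright probe sets. All 3 arrays of stage 12 lay above all 3 of stage 10.5 for 54 of the 71 genes in uninjected and 52 in Geminin explants, where 21.8% and 17.7% of all probe sets did so. The size of the shift rested on the scaling. With median centring in place of quantile normalisation the members' medians were 1.31 and 1.20, while the median of all tested probe sets moved to 0.12 and 0.14. On the deposited scale the medians were 0.97 and 0.86 against -0.23 and -0.20 for all tested. There 22 and 9 genes rose, where 493 and 130 of the 11618 probe sets did. With experiments 2 and 3 averaged at stage 12, 36 genes rose in uninjected and 23 in Geminin explants, where 1247 and 362 probe sets did. Without the stage 12 array of experiment 3 of the condition compared, 41 genes rose in uninjected and 25 in Geminin explants. Over all probe sets 1498 and 448 rose there.

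The steepest rise in uninjected explants was that of rps6.L, the small subunit protein that S6 kinase phosphorylates when growth signals are on. Its signals were 9.94, 9.74 and 9.03 at stage 10.5 and 11.71, 11.07 and 10.93 at stage 12, with no overlap. That is a change of 1.67 ± 0.28 (SE, n = 3 and 3), or 3.18-fold, with limma's adjusted p = 0.000945. The other copy, rps6.S, went from 8.53, 8.46 and 7.69 to 10.10, 9.86 and 9.67, a change of 1.65 ± 0.27 (adjusted p = 0.000738). Among large subunit genes, rpl29.L went from 9.60, 9.16 and 8.99 to 11.17, 10.74 and 10.70 (1.62 ± 0.21, adjusted p = 0.000177). For rpl7a.S the signals were 9.49, 9.58 and 9.34 before and 10.95, 11.17 and 11.05 after (1.59 ± 0.19, adjusted p = 0.000121). Each of these 4 genes kept its direction and passed the threshold under every alternative setting in which it was tested. The only probe set of rpl7a.S is of the type that can bind several transcripts, so it was absent from the setting without that type. Another, dimmer probe set of rps6.S (mean signal 5.89) changed by 0.40 in uninjected explants and did not pass in limma (adjusted p = 0.391).

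In Geminin explants the 4 largest rises were of rpl29.L, rpl27a.L, rpl35a.S and rps21.S. Signals of rpl29.L were 9.00, 8.75 and 8.52 at stage 10.5 and 10.61, 10.32 and 10.52 at stage 12, a change of 1.73 ± 0.21 (adjusted p = 0.000463). For rpl27a.L they were 9.38, 10.27 and 9.49 and then 11.34, 11.54 and 11.44 (1.72 ± 0.24, adjusted p = 0.000886). The stages did not overlap for either gene, and for rpl27a.L experiment 2 stood highest at both stages. The gene rpl35a.S, whose human counterpart is one of those mutated in Diamond-Blackfan anaemia, went from 9.92, 9.62 and 9.65 to 11.40, 11.32 and 11.50 (1.68 ± 0.14, adjusted p = 0.000108). Its brightest probe set is of the shared type, and the probe set that remained without that type missed the threshold at a change of 1.48 (adjusted p = 0.239). The small subunit gene rps21.S went from 9.20, 9.14 and 9.08 to 10.85, 10.64 and 10.72 (1.59 ± 0.14, adjusted p = 0.000131).

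The gene rps12.S, whose Drosophila counterpart is required for cell competition, was the only member that fell in uninjected explants. Its signals were 11.87, 11.63 and 11.79 at stage 10.5 and 11.11, 11.25 and 11.16 at stage 12, a change of -0.59 ± 0.11 (adjusted p = 0.00195). This fall depended on the scaling: with median centring the change was 0.20 (adjusted p = 0.277), on the other side of 0. For the 3 brightest genes, rps29.S, rps27.S and rps18.L, the brightest probe set did not pass the test between the stages in either condition, with changes of 0.22, 0.32 and -0.01 in uninjected and 0.20, 0.26 and 0.04 in Geminin explants. Other probe sets of rps29.S and rps27.S rose in both conditions. Both of rps29.S rose by 0.57 and 0.84 in uninjected explants (adjusted p = 0.0215 and 0.0108), and by 0.61 and 0.94 in Geminin explants (adjusted p = 0.0261 and 0.0116). For rps27.S, 2 of its 3 other probe sets rose, by 0.60 and 0.42 in uninjected and by 0.77 and 0.43 in Geminin explants. With median centring the brightest probe sets passed too, at 1.01, 1.09 and 0.78 for rps29.S, rps27.S and rps18.L in uninjected explants and at 0.95, 1.00 and 0.77 in Geminin explants.

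By rank, brighter members had smaller changes between the stages. Over the 69 tested genes the Spearman correlation between mean signal and change was -0.58 in uninjected and -0.51 in Geminin explants, and Pearson's r was -0.35 and -0.25. With median centring rho was -0.31 and -0.13, and r was -0.01 and 0.13. The relation thus depended on the scaling and on the coefficient. Signal and change of all genes come from the same 12 arrays, and quantile normalisation fixes the distribution at the bright end. Changes between the stages were alike in the 2 conditions. These share no arrays, but their samples were paired within each experiment, so the 2 sets of changes are not independent. Over the 69 genes Pearson's r was 0.89 and Spearman's rho 0.89, and 36 genes rose in both, 76.6% of the 47 and 92.3% of the 39. Over all probe sets tested r was 0.81 and rho 0.80, and 729 rose in both, 41.4% of 1762 and 80.2% of 909. Arrays shared by all genes of a condition enter these values.

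**Figure D2:**
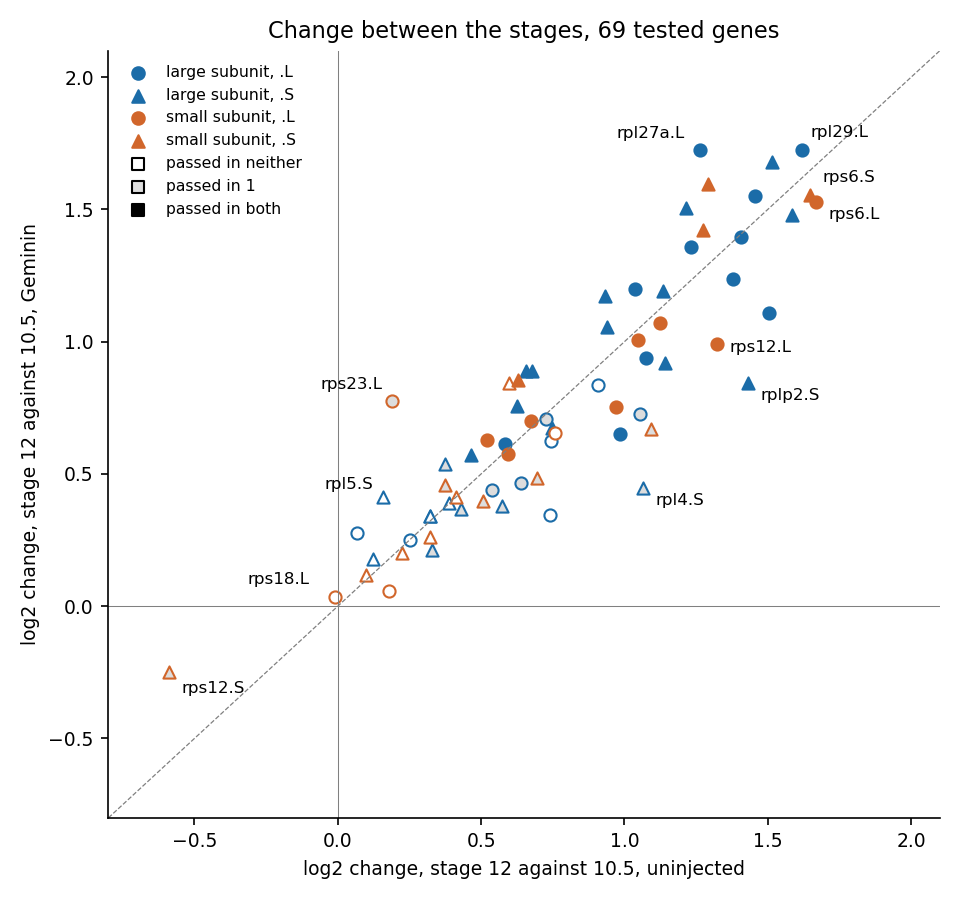
Change in normalised log2 signal from stage 10.5 to stage 12 in uninjected explants (horizontal) and Geminin explants (vertical) for the 69 tested ribosomal protein genes. Colour gives the subunit, shape the copy and fill the number of conditions passing an adjusted p of 0.05, and the dashed line marks equal change; most genes lie in the upper right quadrant near the line, with rps12.S at the lower left and rps23.L well above the line.

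Geminin explants of stage 10.5 had lower signals of 17 ribosomal protein genes than their uninjected partners. This was 24.6% of the 69 tested, where 7.06% of all probe sets tested and 10.6% of the other bright probe sets fell. No member rose in limma, against 3.31% of all probe sets and 3.73% of the other bright ones, and 1 member was higher at an unadjusted p under 0.05. The median change of the 71 genes was -0.11, against 0.05 for all probe sets tested. Within the pairs the members' median difference was -0.285, -0.036 and -0.114 in experiments 1 to 3, beside 0.059, 0.044 and 0.012 for all probe sets tested, so experiment 2 showed the least shift. All 3 pairs were lower for 32 of the 71 genes, which 21.1% of all probe sets were. Counts depended on the pairing and on single experiments: 3 genes fell without the block, and 7, 7 and 10 without experiments 1, 2 and 3. Of the 11618 probe sets tested 240 fell without the block, and 411, 394 and 625 without those experiments. The members' median change was -0.04, -0.20 and -0.13 without experiments 1, 2 and 3.

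Falls at stage 10.5 were largest for rpl31.S, rps21.S, rps23.L and rpl27a.L. The large subunit gene rpl31.S had signals of 10.27, 9.98 and 9.63 in uninjected and 9.53, 9.21 and 9.08 in Geminin explants of experiments 1 to 3. Each Geminin value was below each uninjected one, and the change was -0.69 ± 0.11 (SE, 3 pairs, 1.61-fold lower, adjusted p = 0.00188). For rps21.S the signals were 9.93, 9.86 and 9.68 against 9.20, 9.14 and 9.08 (-0.68 ± 0.11, adjusted p = 0.00156). The gene rps23.L, which encodes a protein of the decoding centre of the small subunit, had 10.98, 11.02 and 10.92 against 10.19, 10.42 and 10.28 (-0.68 ± 0.09, adjusted p = 0.000751). The groups did not overlap for rps21.S or rps23.L. For rpl27a.L they did overlap, with 10.13, 10.81 and 10.14 against 9.38, 10.27 and 9.49, although every pair was lower (-0.65 ± 0.10, adjusted p = 0.00115). Without the block rpl31.S and rpl27a.L missed the threshold (adjusted p = 0.156 and 0.298).

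The other falls at stage 10.5 ranged from -0.64 for rpl35a.S to -0.32 for rpl38.L, the counterpart of a mouse gene needed for the translation of Hox mRNAs. Among them were rps6.L (-0.52), both copies of rps3a (-0.41 for .L and -0.46 for .S), rpl7.L (-0.50) and rpl23.S (-0.52). The brightest probe set of rpl35a.S is of the shared type, and another of that type fell by 0.709 (adjusted p = 0.000893). Its dim probe set that is not of that type (mean signal 5.98) did not pass, at -0.045 (adjusted p = 0.947). Stalk genes did not pass. The stalk, which recruits elongation factors to the large subunit, is built from rplp0, rplp1 and rplp2, and the changes were 0.06 for rplp0.S, 0.13 for rplp1.L, -0.09 for rplp2.L and -0.13 for rplp2.S. Genes known for roles outside the ribosome also missed the threshold: rpsa.S, named for binding laminin (-0.02), rps3.L and rps3.S, linked to DNA repair (-0.09 and -0.31), and rpl5.L, rpl5.S and rpl11.S, whose products bind Mdm2 with the 5S rRNA in mammals (0.17, 0.12 and -0.08).

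At stage 12, 22 of the 69 genes (31.9%) fell and 3 (4.35%) rose with Geminin. Over all probe sets tested the shares were 17.6% lower and 23.5% higher, and among the other bright probe sets 13.4% lower and 33% higher. The median change was -0.17 for the members, 0.09 for all probe sets and 0.16 for the other bright ones. By pair it was -0.254, -0.213 and -0.112 for the members, beside 0.093, 0.071 and 0.075 for all probe sets, and experiment 3, which holds the library with high gmnn.L signal, had the smallest shift. All 3 pairs were lower for 39 of the 71 genes, as for 26.6% of all probe sets. Without experiment 3, 21 members fell and 1 rose, where 1897 and 2511 of the 11618 probe sets did, and the median was -0.18. Without experiment 1, 9 members fell and 0 rose, where 1571 and 1686 probe sets did. Without experiment 2, 7 members fell and 2 rose, where 1567 and 1912 probe sets did. Without the block 2 members fell and 1 rose, where 894 and 615 probe sets did. The share of the 69 members that fell was thus no higher than that of all probe sets without experiment 1, experiment 2 or the block. On the deposited scale 38 members fell and 2 rose, with a median of -0.28, where 2275 and 2238 probe sets fell and rose.

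The gene rplp2.S, for an acidic protein of the stalk, fell most at stage 12. Its signals were 10.22, 9.66 and 9.52 in uninjected and 9.19, 8.96 and 9.08 in Geminin explants, without overlap (-0.72 ± 0.15, 1.65-fold lower, adjusted p = 0.00361). Its other copy rplp2.L had 10.82, 10.77 and 10.59 against 10.37, 10.19 and 10.17 and also fell (-0.48 ± 0.11, adjusted p = 0.00508). The other stalk genes did not pass, at 0.09 for rplp0.S and 0.03 for rplp1.L. For rps6.L the signals were 11.71, 11.07 and 10.93 against 10.95, 10.41 and 10.38 (-0.65 ± 0.13, adjusted p = 0.0027). Its groups overlapped by 1 array, the injected sample of experiment 1, which paired with the highest uninjected value. The copy rps6.S fell by 0.44 ± 0.16 (adjusted p = 0.0466). Its dimmer probe set (mean signal 5.89) changed by -0.085 and did not pass (adjusted p = 0.686).

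Large subunit genes rpl21.L and rpl8.S were next. The signals of rpl21.L were 12.21, 11.56 and 11.53 against 11.21, 11.18 and 11.23 (-0.56 ± 0.15, adjusted p = 0.0124), and without experiment 1 the change was -0.34 (adjusted p = 0.0974). For rpl8.S, whose product lies near the peptidyl transferase centre, they were 11.98, 11.85 and 11.78 against 11.32, 11.31 and 11.36 (-0.54 ± 0.11, adjusted p = 0.00241). Neither gene's groups overlapped. Without experiment 3 the changes of rplp2.S, rps6.L, rpl21.L and rpl8.S were -0.85, -0.69, -0.68 and -0.59, and all 4 passed. Without the block rplp2.S, rps6.L and rpl21.L did not pass (adjusted p = 0.0711, 0.145 and 0.106). The remaining falls ran from -0.52 for rpl7.L to -0.29 for rpl36a.L and included both copies of rpl4 (-0.43 for .L and -0.48 for .S).

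All 3 genes that rose at stage 12 are .S copies. Signals of rpl5.S were 10.09, 10.13 and 9.96 in uninjected and 10.46, 10.35 and 10.50 in Geminin explants, without overlap (0.38 ± 0.12, adjusted p = 0.0234). For rps12.S they were 11.11, 11.25 and 11.16 against 11.62, 11.45 and 11.55, also apart (0.37 ± 0.09, adjusted p = 0.0101). The third, rpl12.S, for a protein at the base of the stalk, had 11.32, 11.19 and 11.21 against 11.60, 11.33 and 11.58 (0.26 ± 0.09, adjusted p = 0.0336), and every Geminin value lay above every uninjected one. Leaving out single experiments ended these calls. The adjusted p of rpl5.S was 0.0663 without experiment 1 and 0.135 without experiment 3, and that of rps12.S was 0.0541 without experiment 1. For rpl12.S it was 0.0849, 0.0544 and 0.161 without experiments 1, 2 and 3.

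The falls of the 2 stages come from separate arrays. Of the 17 genes at stage 10.5 and the 22 at stage 12, 11 fell at both, 64.7% and 50% of the lists: rpl7.L, rpl23.S, rpl29.L, rpl31.S, rpl34.L, rpl35a.S, rpl36a.L, rpl39.L, rps3a.L, rps6.L and rps21.S. The dim probe set of rpl35a.S that is not of the shared type did not pass at stage 12 either, at -0.196 (adjusted p = 0.56). Over all 11618 probe sets tested, 605 fell at both stages, 73.8% of the 820 at stage 10.5 and 29.5% of the 2048 at stage 12. Over the 69 genes the changes with Geminin at the 2 stages had Pearson's r = 0.57 and Spearman's rho = 0.60, where all genes of a stage share 6 arrays, beside 0.58 and 0.54 over all probe sets tested. By rank, brighter members had the smaller falls or rose, with a Spearman correlation of mean signal with change of 0.33 at stage 10.5 and 0.53 at stage 12. Pearson's r was lower, at 0.09 and 0.32. Median centring gave a rho of 0.33 and 0.53 and an r of 0.08 and 0.29.

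**Figure D3:**
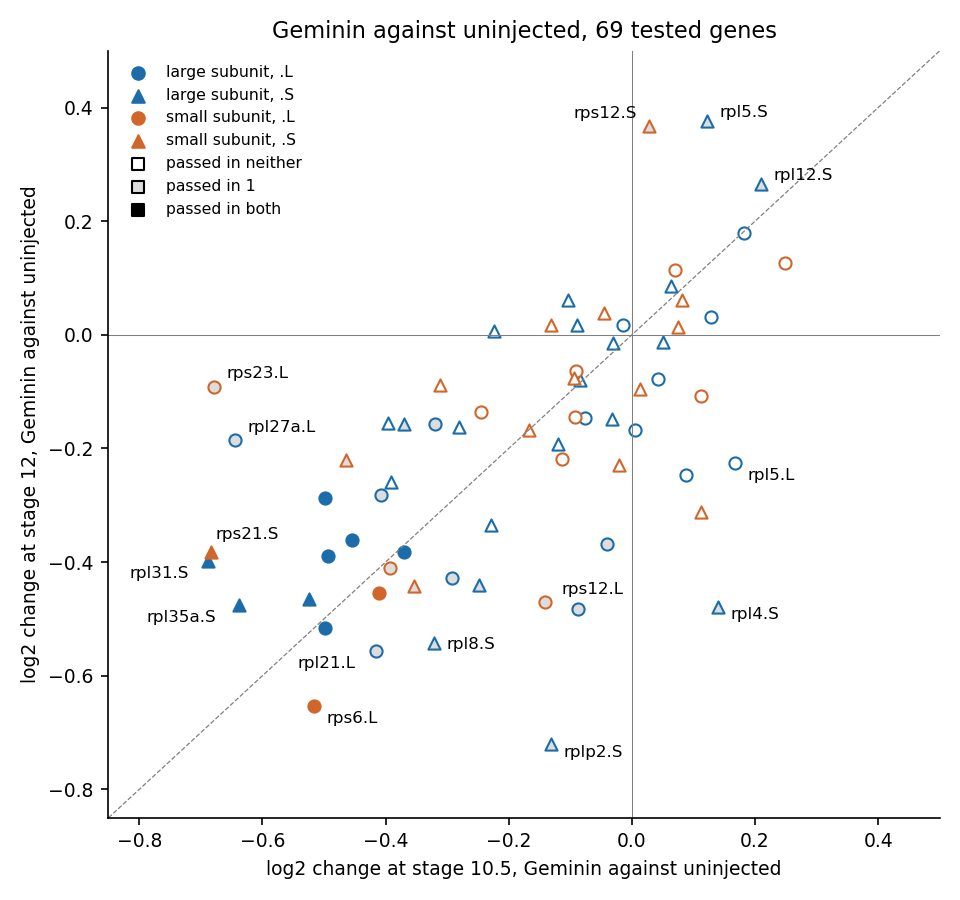
Change in normalised log2 signal with Geminin at stage 10.5 (horizontal) and at stage 12 (vertical) for the 69 tested ribosomal protein genes. Colour gives the subunit, shape the copy and fill the number of stages passing an adjusted p of 0.05, and the dashed line marks equal change; the 11 genes that fell at both stages fill the lower left, and rpl5.S, rps12.S and rpl12.S stand at the top.

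The change with Geminin differed between the stages for 1 of the 69 tested members (1.45%), rps23.L, where it was higher at stage 12. Of all probe sets tested 1.8% had a higher change at stage 12 and 3.97% a lower one, so 1 member is not above that share. At stage 12 its signals were 11.02, 11.29 and 11.18 in uninjected and 10.92, 11.22 and 11.08 in Geminin explants, close together in each pair (-0.09 ± 0.09, adjusted p = 0.463). The difference from the fall at stage 10.5 was 0.59 ± 0.13 (adjusted p = 0.0264). In uninjected explants rps23.L changed by 0.19 ± 0.13 between the stages (adjusted p = 0.307), and in Geminin explants it rose by 0.78 ± 0.13 (adjusted p = 0.00267). The difference did not pass without any 1 of the experiments, with adjusted p = 0.0739, 0.207 and 0.104, nor without the block (0.287). Across the 71 genes the median of this difference was -0.01.

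Large and small subunit genes changed in the same directions. Between the stages 32 of 43 tested large subunit genes (74.4%) rose and 0 fell in uninjected explants. Of 26 small subunit genes 15 (57.7%) rose and 1 fell, and the medians were 0.74 and 0.61. In Geminin explants 25 (58.1%) and 14 (53.8%) rose, with medians of 0.71 and 0.66. Over all probe sets tested 15.2% rose and 16.5% fell in uninjected explants, and 7.82% and 8.49% in Geminin explants. With Geminin, 12 large (27.9%) and 5 small (19.2%) subunit genes fell at stage 10.5, with medians of -0.12 and -0.10, where 7.06% of all probe sets tested fell. At stage 12, 16 large subunit genes (37.2%) fell and 2 (4.65%) rose. Of the small subunit genes 6 (23.1%) fell and 1 (3.85%) rose, and the medians were -0.19 and -0.12. There 17.6% of all probe sets tested fell and 23.5% rose.

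Per array, the large minus small difference of the centred medians was -0.044, -0.024 and -0.218 in uninjected explants of stage 10.5 and 0.146, 0.117 and 0.133 at stage 12, without overlap. In Geminin explants it was -0.127, -0.132 and -0.031 and then -0.076, 0.07 and 0.105, which overlap. With median centring the uninjected values were -0.077, 0.012 and -0.053 and then 0.295, -0.02 and 0.015, and these overlap too. A difference between the subunits was thus not stable to the scaling. The genes compared are different genes with different probe sets, so no test was made.

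**Figure D4:**
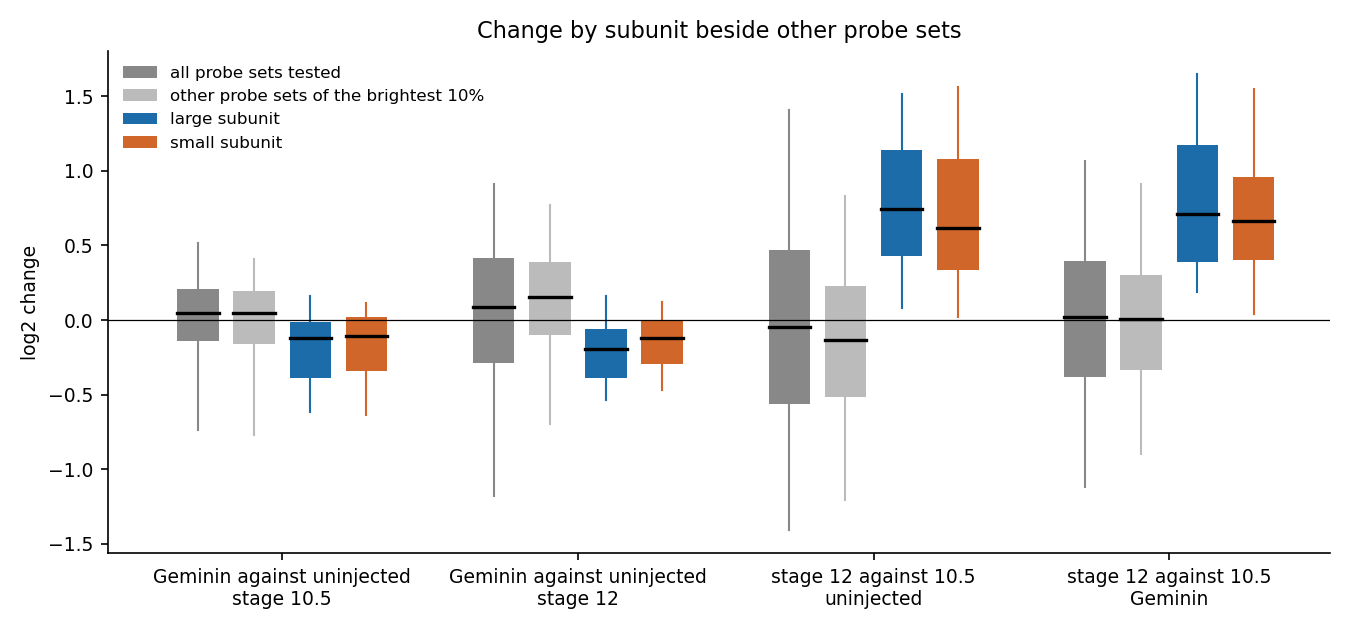
Change in normalised log2 signal (vertical) in the 4 comparisons for all 11618 probe sets tested, the 1071 other probe sets in the brightest 10%, the 45 large subunit genes and the 26 small subunit genes. Boxes span the middle quartiles, lines run from the 5th to the 95th percentile and black bars are medians. The medians of both subunits lie above those of the other probe sets between the stages and below them with Geminin, with overlapping ranges.

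The .L and .S copies changed in the same directions as groups. In uninjected explants 23 of 32 tested .L copies (71.9%) rose and 0 fell between the stages. Of 37 .S copies 24 (64.9%) rose and 1 fell, and the medians were 0.83 and 0.63. In Geminin explants 20 (62.5%) and 19 (51.4%) rose, with medians of 0.72 and 0.57. Over all probe sets tested 15.2% rose and 16.5% fell in uninjected explants, and 7.82% and 8.49% in Geminin explants. With Geminin, 11 .L copies (34.4%) and 6 .S copies (16.2%) fell at stage 10.5, with medians of -0.11 and -0.12, where 7.06% of all probe sets tested fell. At stage 12, 13 .L copies (40.6%) fell and 0 rose. Of the .S copies 9 (24.3%) fell and 3 (8.11%) rose, and the medians were -0.22 and -0.16. There 17.6% of all probe sets tested fell and 23.5% rose. The median signal of the .L copies minus that of the .S copies, on the gene-centred scale, was 0.015, -0.016 and -0.286 in the uninjected arrays of stage 10.5 and 0.246, 0.031 and 0.043 in those of stage 12, which did not overlap. In Geminin explants it was 0.024, -0.019 and -0.197 and then 0.114, 0.014 and -0.045, which overlapped, as did the uninjected arrays with median centring, and no test was made of this difference. Most genes were represented by one copy only, so these groups hold different genes. Probe sets that the annotation gives to both copies of a ribosomal protein gene, 12 in number and no members, had medians of -0.07 and -0.09 with Geminin at stages 10.5 and 12 and of 0.53 and 0.55 between the stages.

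Copies of the same gene could be compared for 7 genes: rpl4, rpl5, rplp2, rps3, rps3a, rps6 and rps12. The copy is that of the annotation, and whether a probe set binds only that copy was not checked for any of them. For rps3a the brightest probe sets of both copies are of the type that can bind several transcripts, so the test may not read its copies apart. Each copy also had a dimmer probe set that is not of that type. With Geminin these changed by -0.701 for .L and -0.326 for .S at stage 10.5, and by -0.592 and -0.266 at stage 12. Between the stages they changed by 1.629 and 0.855 in uninjected and by 1.739 and 0.915 in Geminin explants. The difference between these dimmer probe sets was not tested. The test took the .L minus .S difference on each array over 794 such gene pairs of the array. At stage 10.5, 0 of the 7 differed in their change with Geminin in limma, where 6.8% of all gene pairs did, and 1 (rpl4) had an unadjusted p under 0.05. At stage 12, rps12 and rpl5 differed, where 24.8% of all gene pairs did, a share near that of 2 in 7. Between the stages rps12 differed in both conditions, where 10.3% and 4.03% of all gene pairs did.

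The copies of rps12 changed unequally with Geminin at stage 12 and between the stages. Signals of rps12.L were 11.38, 11.32 and 11.34 in uninjected and 10.70, 10.93 and 11.01 in Geminin explants of stage 12, a fall of 0.47 ± 0.14 (adjusted p = 0.0203), while rps12.S rose by 0.37 as given above. The change of .L minus that of .S was -0.84 ± 0.14 (adjusted p = 0.00148 over the gene pairs). From stage 10.5 to stage 12 in uninjected explants, rps12.L rose from 10.46, 10.13 and 9.49 (1.32 ± 0.27, adjusted p = 0.00363) and the difference from rps12.S was 1.91 ± 0.27 (adjusted p = 0.00252). In Geminin explants rps12.L started from 9.96, 10.40 and 9.30 and rose by 0.99 ± 0.27 (adjusted p = 0.0289), rps12.S had 11.83, 11.81 and 11.72 and then 11.62, 11.45 and 11.55 (-0.25 ± 0.11, adjusted p = 0.148), and the difference was 1.24 ± 0.27 (adjusted p = 0.0387). The sign of the change of rps12.S between the stages turned with median centring, to 0.43 in Geminin explants, whereas rps12.L kept its direction. The fall of rps12.L at stage 12 missed the threshold without experiment 1 (-0.35, adjusted p = 0.118), without experiment 2 (-0.49, adjusted p = 0.0653) and without the block. Its rise in Geminin explants missed the threshold without the injected arrays of experiment 1 or 3 at stage 10.5 (adjusted p = 0.0588 and 0.101) and of experiment 2 or 3 at stage 12 (0.0822 and 0.101).

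For rpl5 the copies differed at stage 12. Signals of rpl5.L were 11.43, 10.80 and 10.67 in uninjected and 10.89, 10.73 and 10.58 in Geminin explants (-0.23 ± 0.12, adjusted p = 0.16), with overlapping groups, whereas rpl5.S rose. The difference of the changes was -0.60 ± 0.13 (adjusted p = 0.00749). For the other 5 genes with 2 copies the difference with Geminin at stage 12 missed the threshold, from -0.23 ± 0.12 for rps3a to 0.24 ± 0.16 for rplp2. Without the block neither rps12 nor rpl5 passed, and without experiment 1 only 1 of them did.

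**Figure D5:**
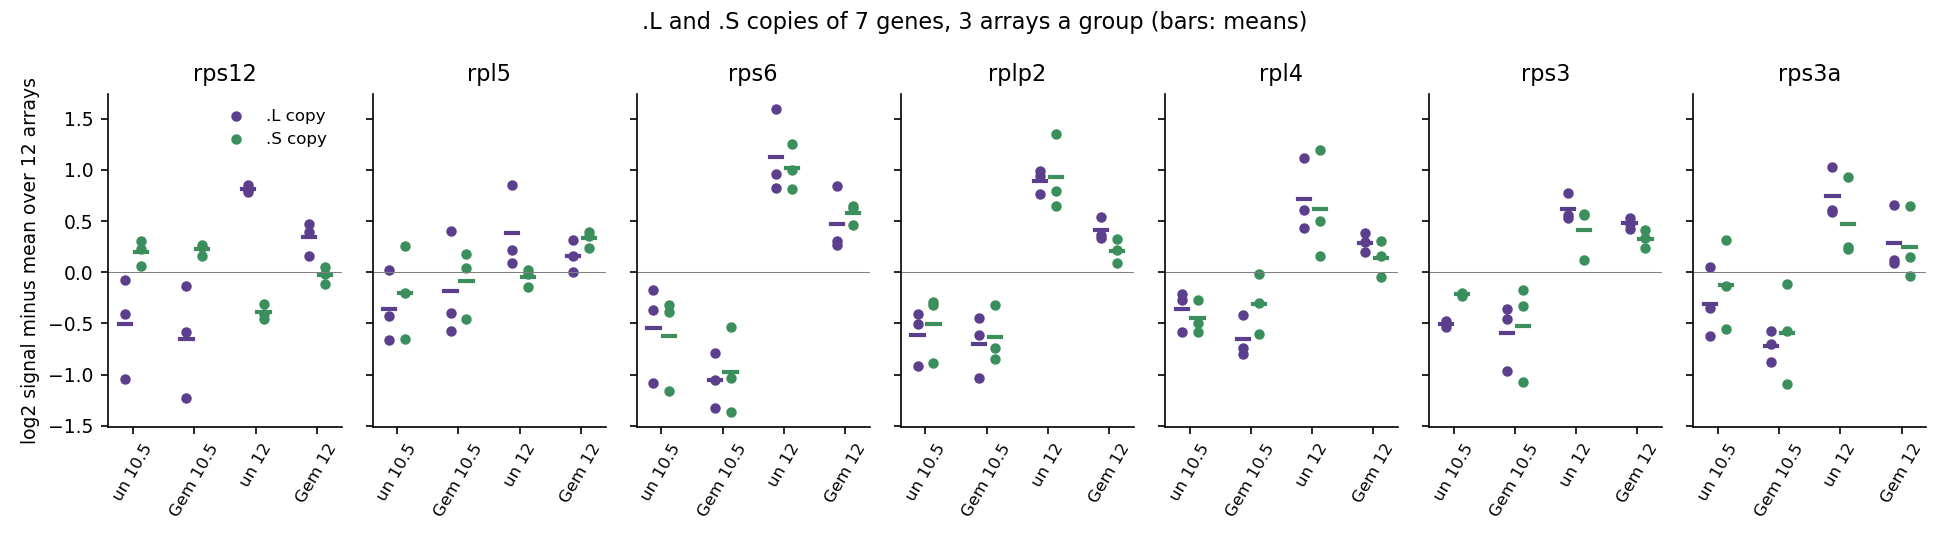
Normalised log2 signal minus the copy's mean over the 12 arrays (vertical) for the .L and .S copies of 7 ribosomal protein genes in uninjected (un) and Geminin (Gem) explants of stages 10.5 and 12 (horizontal). Points are the 3 arrays of a group and bars their means; the copies of rps12 run in opposite directions at stage 12, while those of rps6, rplp2 and rps3 move together.

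A further ribosomal protein, fau.L, whose product is the small subunit protein eS30 made as a fusion with a ubiquitin-like protein, lies outside the rule by its name. It rose between the stages by 0.92 ± 0.16 in uninjected (adjusted p = 0.00121) and 0.89 ± 0.16 in Geminin explants (adjusted p = 0.00333), and did not pass with Geminin (0.06 and 0.03). Of the 20 other probe sets of 14 members, 15 and 16 had the sign of the brightest probe set with Geminin at stages 10.5 and 12, and 18 and 19 between the stages in uninjected and Geminin explants.

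Genes of ribosome assembly, which process rRNA and build the subunits in the nucleolus, were read from the same fits. Of 54 tested genes for ribosome biogenesis, 5 fell and 0 rose with Geminin at stage 10.5, with a median of -0.10 over the 55 genes. The 5 were 9.26% of the list, where 7.06% of all probe sets tested fell and 3.31% rose. At stage 12, 16 fell and 4 rose (median -0.15), which was 29.6% and 7.41% of the list beside 17.6% and 23.5% of all probe sets tested. Both copies of utp15, a component of the small subunit processome, fell at both stages (-1.001 and -0.92 for utp15.L, -0.95 and -0.78 for utp15.S), as did nop58.S, a box C/D snoRNP protein (-0.71 and -0.75), and nop2.L, an rRNA methyltransferase (-0.70 and -0.80). Between the stages 12 rose and 2 fell in uninjected explants, polr1a.L, the largest subunit of RNA polymerase I, by 1.29 ± 0.19 (adjusted p = 0.000401), and 9 rose and 1 fell in Geminin explants. The genes that rose were 22.2% and 16.7% of the list, beside 15.2% and 7.82% of all probe sets tested. Those that fell were 3.7% and 1.85%, beside 16.5% and 8.49%.

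Mitochondrial ribosomal proteins serve a separate ribosome. Of 38 such genes, 1 rose and 0 fell with Geminin at stage 10.5, and 14 rose and 1 fell at stage 12, mrps15.L by the most (1.53 ± 0.21, adjusted p = 0.000261) and mrpl21.L being the one that fell (-0.59 ± 0.18, adjusted p = 0.0221). The 1 that rose at stage 10.5 was 2.63% of the list, where 3.31% of all probe sets tested rose and 7.06% fell. The 14 were 36.8% of the list, where 23.5% of all probe sets tested and 33% of the other bright ones rose. The 1 that fell at stage 12 was 2.63%, beside 17.6% of all probe sets tested. Between the stages 4 rose and 7 fell in uninjected explants, 10.5% and 18.4% beside 15.2% and 16.5% of all probe sets tested. In Geminin explants 4 rose and 3 fell, 10.5% and 7.89% beside 7.82% and 8.49%. Of 20 tested genes for other mRNAs with a terminal oligopyrimidine tract, such as translation factors, 1 fell with Geminin at stage 10.5 (hnrnpa1.S, -0.60) and 1 fell and 4 rose at stage 12, with eef1g.S, a subunit of elongation factor 1, at 0.54. These were 5% lower at stage 10.5, where 7.06% of all probe sets tested fell, and 5% lower and 20% higher at stage 12, beside 17.6% and 23.5%. Between the stages 1 rose and 3 fell in uninjected explants, 5% and 15% beside 15.2% and 16.5% of all probe sets tested. In Geminin explants 0 changed in limma, where 7.82% of all probe sets tested rose and 8.49% fell.

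Of 8 genes that control such mRNAs or ribosome synthesis, 1 rose and 1 fell with Geminin at stage 10.5 (12.5% each), beside 3.31% and 7.06% of all probe sets tested. At stage 12, 0 rose and 4 fell (50%), beside 23.5% and 17.6%. Between the stages 3 rose and 1 fell in uninjected explants, 37.5% and 12.5% beside 15.2% and 16.5%. In Geminin explants 1 rose and 2 fell, 12.5% and 25% beside 7.82% and 8.49%. The gene larp1.L, for the protein that binds the tract, fell with Geminin at both stages (-1.33 ± 0.19, adjusted p = 0.000837, and -1.09 ± 0.19, adjusted p = 0.00112). The S6 kinase gene rps6kb1.L fell at stage 12 (-0.89 ± 0.20, adjusted p = 0.00542). Of the copies of myc, a transcription factor for growth genes, myc.S rose at stage 10.5 (0.79 ± 0.19, adjusted p = 0.0209) and both fell at stage 12 (-1.59 ± 0.18 for myc.L and -0.92 ± 0.19 for myc.S).

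Markers of the ectoderm moved in the same comparisons. The list held copies of krt12.4, krt70, tfap2a, grhl1, grhl3, foxi1, cdh1 and epcam. It held no neural genes, so a loss of ectoderm as such cannot be read from it. Bright probe sets weigh most in the sums below, with krt70.S at percentiles 99.3 to 100 and cdh1.S at 16.2 to 76.4. Of these 11 ectoderm marker genes 9 fell with Geminin at stage 10.5, 81.8% where 7.06% of all probe sets tested fell. At stage 12, 8 fell and 2 rose, 72.7% and 18.2% beside 17.6% and 23.5% of all probe sets tested. The summed deposited intensity of the 11 genes at stage 10.5 ran from 15690 to 19900 in uninjected and from 10323 to 13535 in Geminin explants. At stage 12 it ran from 21598 to 25263 and from 15024 to 17015. The part of this in the ribosomal protein changes was not tested. Of 6 mesoderm and 10 endoderm marker genes, 3 and 2 passed the filter on dim probe sets. At stage 10.5 the mesoderm sum was 116 to 140 in uninjected and 147 to 215 in Geminin explants, without overlap. There myod1.L, a muscle regulator, rose by 0.84 with Geminin (adjusted p = 0.0117). Of the 6 mesoderm genes, however, 2 were higher and 4 lower, with a median change of -0.04. At stage 12 the mesoderm sum was 154 to 214 in uninjected and 136 to 207 in Geminin explants. The endoderm sum was 112 to 236 and 170 to 262 at stage 10.5. At stage 12 it was 213 to 264 in uninjected and 108 to 204 in Geminin explants, again without overlap, and gata6.L, an endoderm transcription factor, fell by 1.01. The part of these markers in the ribosomal protein changes was not tested either.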

How the data were processed

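The authors deposited 1 intensity per probe set and array, on a linear scale. The steps that summarised and scaled the probes are not given in the labels used here. Because the log2 medians of the arrays ranged over 1.31, more than the limit of 0.2, log2(intensity + 16) was quantile normalised. A filter on mean signal removed the dimmest 25% (3873) of the 15491 probe sets, and the remaining 11618 were fitted with limma 3.58.1 in R 4.3.3 (lmFit, eBayes with an intensity trend), with Benjamini-Hochberg adjustment and a threshold of 0.05. The number of arrays limits the precision, and changes of dim genes are understated on this scale.

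Groups follow the titles and the stage and manipulation labels. One description, of the uninjected array of experiment 2 at stage 12, names stage 10.5 instead, and its title was followed. Geminin effects were fitted with the experiment within a stage as a block, since the design text pairs the samples (4 residual degrees of freedom), and stage effects as 4 group means (8). The stage fits treat all arrays as independent, although paired arrays went together, so adjusted p-values of the stage changes may be too small. Deviations of paired arrays correlated at 0.765 to 0.797 at stage 10.5 and 0.424 to 0.693 at stage 12, although the injected array of experiment 3 went further with the uninjected array of experiment 2 (0.555) than with that of experiment 3 (0.424). Experiment numbers did not link the stages (-0.037 to 0.201).

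In the annotation 9304 probe sets had 1 symbol, 195 had several and 5992 had none; 9227 matched a gene identifier and 2 symbols were updated. A symbol rps9 without a suffix was left out. Named are up to 4 rises and 4 falls per comparison among genes that passed, the 3 brightest and 3 dimmest members, gene copies that differed, genes of known role, and up to 4 genes of each other list per comparison, with a few others named after their values were seen: the members shared by the stages, the ends of the ranges given, both copies of rps3a and rpl4, and both copies of utp15, nop58.S, nop2.L, rps6kb1.L, myc, mrpl21.L and hnrnpa1.S where the rule does not give them. The members and the gene lists were chosen with earlier results of these data known. Alternatives were the deposited scale, median centring, other filters and pseudocounts, no trend, the mean of all probe sets of a symbol, the block, leaving out arrays and, added after seeing the data, leaving out shared-type probe sets and averaging experiments 2 and 3 at stage 12. The script was tested on simulated data.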

Additional observations from a re-analysis of the deposited data

Results flagged for a closer look

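The gene rps23.L stood out because its change with Geminin differed between the stages by the interaction term of the paired fit, with a difference of 0.59 ± 0.13 (stage 12 minus stage 10.5, adjusted p = 0.0264). It was lower in all 3 pairs at both stages, by more at stage 10.5. It was 1 of 69 tested members (1.45%), beside 1.8% of all probe sets tested with a higher change at stage 12 and 3.97% with a lower one. The sign held under all 13 alternatives, from 0.39 to 0.62, and 6 of them passed the threshold, with adjusted p from 0.0245 to 0.287. It did not pass on the deposited scale, with median centring, without the trend, without the block or without any 1 experiment.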

How the results depend on the processing

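Of the counts of ribosomal protein genes that changed, 53 of the alternative values stayed within 1.5 times the count given, 21 were lower and 2 higher. The median changes of the 4 comparisons between groups kept their sign, while that of the difference between stages (-0.012) ran from -0.092 to 0.035. With Geminin at stage 10.5 the 17 became 5 without the intensity trend, 3 with no replicate block, and 7 to 10 without single experiments. At stage 12 the 25 became 40 on the deposited scale, 16 without the trend, 3 with no replicate block, 0 with no replicate block and the library labelled uninjected of experiment 3 left out, and 9 to 22 without single experiments; the median became -0.281 on the deposited scale and -0.266 with median centring. Between the stages in uninjected explants the 48 became 22 on the deposited scale, with medians of 0.971 there and 1.313 with median centring. In Geminin explants the 39 became 9 on the deposited scale, 62 with median centring, 23 with experiments 2 and 3 averaged and 25 to 38 without single arrays, with medians of 0.859 and 1.199. The replicate block in the stage comparisons gave 53 and 45. For the difference between stages 0 genes passed on the deposited scale, with median centring, without the trend, with no replicate block and without any 1 experiment, where the range was 0 to 0, and at an unadjusted p under 0.05 the fit of all arrays had 3 higher and 5 lower. No share of all probe sets was counted at that unadjusted cut, here or for the unadjusted counts above. The 2 gene pairs of stage 12 became 0 with no replicate block and 1 to 2 without single experiments. With median centring rps12.S turned to 0.197 in uninjected and 0.432 in Geminin explants between the stages, and rps18.L to 0.777 in uninjected explants. Averaging arrays, leaving them out or dropping the block changes the residual degrees of freedom or the spread; the other causes were not tested. Of the named single genes, 1386 alternative values kept their side of the threshold, 105 no longer passed and 29 newly passed. A further 3 turned sign where at least 1 of the 2 fits passed. Turns of sign where neither fit passed count among the 1386. One example is rpl11.S with Geminin at stage 10.5, which kept its sign under 12 of 13 alternatives. Signal over background limits rpl28.L and rpl3l.L.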
